A study of Homo sapiens with 12 samples.

Results

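Antisense lncRNAs were examined in K562 cells treated with the USP7 inhibitor FT671. The members are the lncRNA genes of GENCODE release 44 whose symbol ends in -AS1, -AS2 or -AS3, with at least 60 counts summed over the 6 RNA-seq libraries, and 1 gene was left out by the rule. Of the 60609 genes listed, 1800 carry such a name, 1180 of these had at least 1 count, and 537 became members (510 ending in -AS1, 26 in -AS2 and 1 in -AS3). The summed count chose the members, so their presence at this level is no finding. Just inside the limit lay ACVR2B-AS1 and DMTF1-AS1 with 60 counts each, and just outside it ARHGAP5-AS1 and BRPF3-AS1 with 59.

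K562 is a long-established leukemia line with erythroid features, derived from a patient with chronic myeloid leukemia, and it carries the BCR-ABL1 fusion. Both groups were the same K562 line with no genetic change named in the labels: 3 libraries (replicates 1 to 3) from cells given DMSO, the solvent, and 3 from cells given FT671 at 10 μM, each for 48 h. The study speaks of independent experiments, and neither it nor the labels say what separates them, so p-values measure the spread between these samples, and 1 line is the only cell model. Total RNA was depleted of ribosomal RNA before sequencing, a protocol that retains nuclear and non-polyadenylated transcripts. Library totals ranged from 4555220 to 14250500 counts. A floor of 3 counts, which covers counting error only, was worth 0.208 to 0.666 CPM with TMM-scaled library sizes. Of the 11 K562 markers looked up, 10 had a mean of at least 1 CPM, with summed levels of 1291 to 1357 CPM in DMSO and 1137 to 1191 CPM after FT671. Markers of lymphoid cells summed to 19.0 to 23.9 CPM in DMSO and 26.0 to 32.5 after FT671, those of monocytes and granulocytes to 11.4 to 13.5 and 7.14 to 9.09, and stromal markers to 2.37 to 2.95 and 2.54 to 2.85. The part of these shifts in the results below was not tested. In bulk RNA, fewer cells that transcribe a gene and less RNA per cell cannot be told apart.

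An antisense lncRNA is transcribed from the strand opposite to a named sense gene. Some begin at the sense gene's own promoter and run away from it, some run head to head into its first exons, and some lie inside an intron or pass through its end. Members of this class have been described as acting at their own locus, by covering splice sites or by recruiting chromatin factors, and as acting elsewhere as scaffolds or sponges, whereas many have no known role. Transcripts from the antisense side of promoters are commonly kept short-lived by the nuclear exosome and by the Integrator complex. USP7 is a deubiquitinase, and the study that made these data examined it as a partner of the Polycomb complex PRC1.1.

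The members were mostly sparse. Their median summed count was 239, 84 had at least 1000, and the most abundant held 63732. Together they made up 0.933% to 1.01% of all counts in each library. By position, 450 overlapped exons of their sense gene, 57 overlapped its body but no exon, 15 were divergent (no overlap, starts within 1000 bases), 2 lay on the same strand, 5 lay elsewhere and 8 had no sense gene by that name in the files. The 529 members with a sense gene named 516 different genes, and 525 of the members had a protein-coding sense gene. In 26 members the sense gene was shared with another member, so those are not separate loci.

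How far the counts of these genes are their own was examined first, because the strand setting of the counting is not given in the sources used here. Among 553 genes of at least 200 exon bases whose exons lie wholly on exons of the other strand, 75.6% had at least 1 count, against 20.9% of 767 genes lying wholly on exons of the same strand. Reads on opposite exons were therefore assigned to 1 gene or the other rather than dropped. In 191 such genes with a single protein-coding gene opposite that had at least 100 counts in every library, the count per exon base was at the median 1.04 times that of the gene opposite (interquartile range 0.273 to 2.07), with medians of 1.01 to 1.14 in the 6 libraries. In 101 of the 191 the covered gene had the higher count per base. The transcript lying antisense to GAPDH, a glycolytic enzyme with very high expression, had 69906 counts against 90682 for GAPDH. Per exon base its count was the higher, with a log2 ratio of 2.13. In 147 of these pairs both genes were tested, and their log2 fold changes with FT671 had a Pearson's r of 0.859 across genes, which are not independent replicates, with the same sign in 125. The reads of a sense and an antisense exon on the same bases cannot be told apart in these counts.

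**Figure D1:**
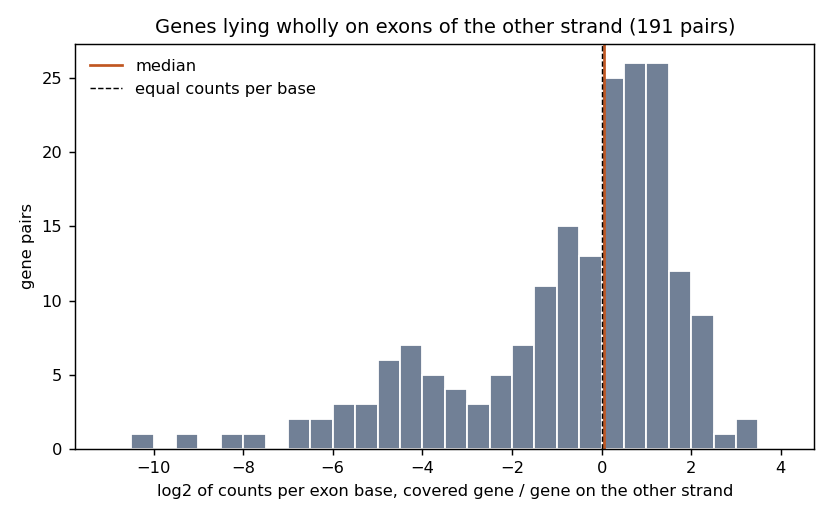
Distribution of the log2 ratio of counts per exon base between 191 genes lying wholly on exons of the other strand and the protein-coding gene on that strand (x axis) as numbers of pairs (y axis). The median ratio was 1.04 (coloured line), close to equal counts per base (dashed line), and a smaller set of covered genes lies far below it.

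This bears on most members. 489 of the 537 had at least 1 exon base on an opposite-strand exon, with a median of 16% of exon bases over all members, and 13 were covered wholly. Intronic reads of the opposite gene can reach more of them, since the median member had 74.0% of its exon bases inside the body of an opposite-strand gene and 168 lay wholly inside one. A further 49 shared exon bases with another gene on their own strand. In 94 members 20% or less of the exon bases lay inside any opposite-strand gene, and these are pointed out below as members largely on bases of their own.

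After FT671, antisense lncRNAs moved in both directions. Of 530 members that passed the filter on low counts, 90 fell and 90 rose at an adjusted p of 0.05 by edgeR's quasi-likelihood test. That is 17.0% in each direction, against 26.5% lower and 23.6% higher among all 13895 genes tested. The balance moved with the processing, to 108 lower and 83 higher with a gene length correction, 106 and 77 with that and a replicate block, and 60 and 78 with at least 10 counts required in every library. The groups did not overlap in 113 members that were lower (21.3%, against 32.1% of all genes) and in 101 that were higher (19.1%, against 24.6%). Overlap was judged on CPM without the TMM factors, which were 0.998 to 1.02 in DMSO and 0.981 to 0.992 after FT671. Without these factors the FT671 values stand lower relative to DMSO, and the part of this in the split was not tested. Members and all genes had the same median log2 fold change, −0.01. The 7 members that did not pass the filter had 60 to 68 counts.

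The share of members called followed their counts. It was 23.6% in the 212 tested members under 200 counts, 40.9% in the 318 with at least 200, and 51.2% in the 84 with at least 1000 counts (19 lower, 24 higher), against 50.1% of all genes. The median standard error (SE) of the log2 fold change was 0.228 in the members and 0.131 in all genes, whose median summed count was 1173 against 245.5. A pair of other lncRNA groups at like depth, 148 with symbols ending in -DT (divergent transcripts) and 145 LINC genes (intergenic), had 23.6% and 27.6% called. Of the 472 tested sense genes, 152 fell and 101 rose (53.6%). The 91 tested members largely on their own bases had 16 lower and 13 higher (31.9%). At 1e-05, the stricter threshold of the study's methods, 2 members were lower and 1 was higher by edgeR (4.13% lower and 1.79% higher of all genes): FOXD2-AS1 and SPTBN1-AS2 fell and ZRANB2-AS1 rose. These low counts at 1e-05 hinged on the tool and on single libraries: DESeq2's Wald test gave 9 lower and 12 higher, and without DMSO replicate 3 edgeR gave 13 and 15. No share of all genes at 1e-05 stands beside these alternatives, so they describe the members alone.

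**Figure D2:**
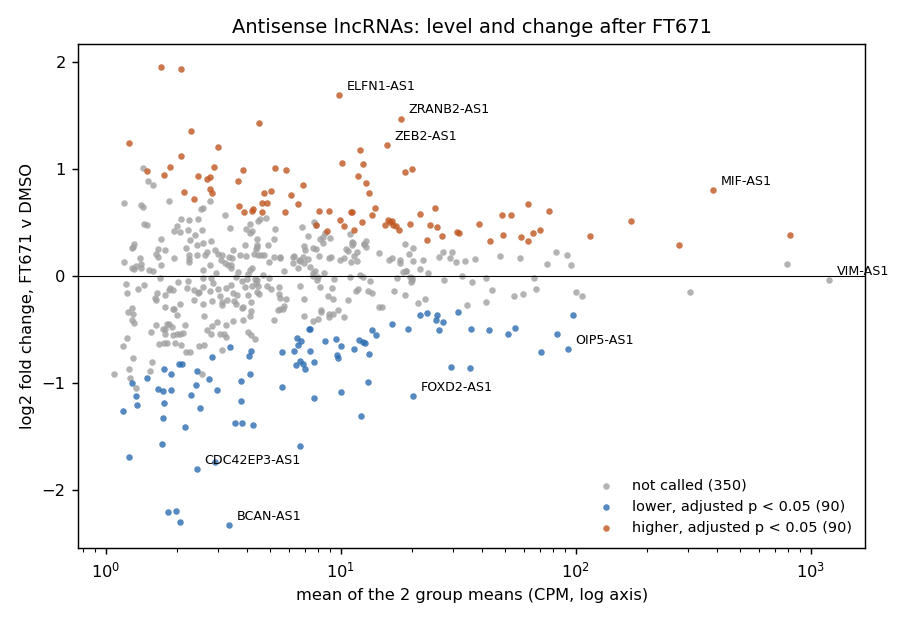
Mean level (x axis, CPM, log scale) and log2 fold change after FT671 (y axis) of the 530 members tested, coloured by the edgeR call at an adjusted p of 0.05. 90 points are lower and 90 higher, and the changes called narrow toward the more abundant members.

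The largest falls came from members of a few CPM. Some of their FT671 values lay near or below the floor of 3 counts. With TMM-scaled library sizes this floor was worth 0.666, 0.541 and 0.268 CPM in FT671 replicates 1, 2 and 3. The CPM of the members below use library totals without the TMM factors. BCAN-AS1 (ENSG00000272068, chr1:156637783-156641004, minus strand, GENCODE positions in GRCh38 as for all members) had the largest, and its 3222 exon bases touch no other annotated gene. It is a divergent neighbour of BCAN, which encodes brevican, a proteoglycan of brain matrix. BCAN-AS1 had 5.96, 6.38 and 4.51 CPM in DMSO and 0.878, 1.25 and 1.14 CPM after FT671. Every FT671 library lay below every DMSO library, and its log2 fold change was −2.33 (SE 0.278, edgeR adjusted p = 1.23e-05). BCAN itself went from 8.30 ± 1.80 to 5.79 ± 0.327 CPM (SD, n = 3 each), and its log2 fold change of −0.45 did not pass (edgeR adjusted p = 0.0638), and the antisense change lay below the sense change by 1.87 on the log2 scale (adjusted p = 0.00203 from limma's pair test, described below).

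TLR8-AS1 (chrX:12902817-12908333, minus strand) overlaps the body of TLR8, a receptor for single-stranded RNA in endosomes, with 8.75% of its exon bases. It measured 4.14, 3.46 and 2.63 CPM in DMSO and 0.878, 0.535 and 0.699 CPM after FT671, again without overlap, a log2 fold change of −2.30 (SE 0.341, edgeR adjusted p = 8.32e-05). TLR8 had 0 to 5 counts per library and was not tested, so that the lncRNA is the transcript seen at this locus. HSD11B1-AS1 stood likewise beside a gene hardly detected, HSD11B1, the enzyme that regenerates cortisol, with 0 or 1 count per library. HSD11B1-AS1 fell from 1.88 ± 0.232 CPM in DMSO to 0.633 ± 0.272 CPM (SD, n = 3 each), and this call was lost without FT671 replicate 3 (adjusted p = 0.0534 from edgeR).

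DDX59-AS1 (chr1:200669507-200694250, plus strand) starts 400 bases inside DDX59, an RNA helicase gene read the other way, and has 15.8% of its exon bases within it. Its level was 2.74, 4.10 and 2.26 CPM in DMSO and 0.220, 1.07 and 0.612 CPM after FT671, from 1, 6 and 7 counts. The groups did not overlap and the log2 fold change was −2.21 (SE 0.416, edgeR adjusted p = 0.000573). DDX59 did not pass the test, at 39.7 ± 5.27 and 33.1 ± 1.53 CPM (SD, n = 3 each; log2 fold change −0.20).

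CDC42EP3-AS1 (chr2:37562486-37646698, plus strand) fell while its sense gene rose. CDC42EP3 encodes an effector of the GTPase CDC42, and the lncRNA crosses its end with 9.78% of its exon bases. CDC42EP3-AS1 had 4.21, 4.19 and 3.20 CPM in DMSO and 0.878, 0.892 and 1.31 CPM after FT671. CDC42EP3 had 9.19, 9.39 and 11.1 CPM in DMSO and 14.7, 15 and 18.5 CPM after FT671. Neither gene's groups overlapped, the log2 fold changes were −1.81 and 0.79, and they differed by −2.6 (SE 0.305, adjusted p = 5.23e-05 from limma's pair test).

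The other 3 of the 8 largest falls lie wholly inside an opposite-strand gene. HECW2-AS1, inside a ubiquitin ligase gene, had a log2 fold change of −2.20 beside −2.19 for HECW2, and had 2, 2 and 11 counts after FT671. PKP4-AS1 went by −1.74 beside −0.88 for PKP4, a junction protein gene of the plakophilin family. ZBED9-AS1 went by −1.60, with SCAND3 on 45.8% of its exon bases.

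Among the largest rises, SERTAD3-AS1, wholly inside SERTAD3, a transcriptional coregulator gene, rose with its sense gene not called. It had 0.842, 1.0 and 0.752 CPM in DMSO and 4.17, 2.32 and 3.50 CPM after FT671, without overlap (log2 fold change 1.93, SE 0.321, edgeR adjusted p = 0.000222). SERTAD3 stood at 36.3 ± 5.13 and 40.5 ± 2.04 CPM (SD, n = 3 each), and the antisense change exceeded the sense change by 1.73 (adjusted p = 0.0014 from limma's pair test). ELFN1-AS1, in an intron of the gene for a synaptic adhesion protein, rose from 4.71 ± 1.45 to 15 ± 2.31 CPM (SD, n = 3 each). Per kilobase of exon it was the higher of the pair, at 9.95 CPM against 0.520 for ELFN1, which rose with it (log2 fold change 1.69 and 0.84).

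ZRANB2-AS1 (chr1:71048855-71067184, plus strand), which crosses the end of the splicing factor gene ZRANB2 with 43.3% of its exon bases on ZRANB2 exons, had the lowest adjusted p of any member. It measured 10.0, 8.84 and 10.9 CPM in DMSO and 25, 25.7 and 28.1 CPM after FT671, a log2 fold change of 1.46 (SE 0.127, edgeR adjusted p = 7.01e-07). ZRANB2 rose by 1.30, and both genes had 18.7 CPM per kilobase. STARD4-AS1 rose by 1.35 and FAM13B-AS1 by 1.24, with rises of 0.85 in STARD4, a cholesterol carrier gene, and 1.01 in FAM13B. The call of FAM13B-AS1 was lost with DESeq2 (adjusted p = 0.0661), without DMSO replicate 1 (0.109 from edgeR) and without FT671 replicate 1 (0.0561).

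The most abundant members changed nearly as their sense genes did. Of the 6 most abundant, only 1 lay largely on bases of its own, so the counts of the others may hold reads of opposite-strand genes. VIM-AS1, beside the intermediate filament gene VIM, lay between 1051 and 1395 CPM in DMSO and between 1126 and 1202 after FT671. Its groups overlapped, with a log2 fold change of −0.04 against 0.02 for VIM. MIF-AS1 rose from 283 ± 59.4 to 484 ± 69.5 CPM (SD, n = 3 each), by 0.80 on the log2 scale, and MIF, a cytokine gene, by 0.79. Both MIF-AS1 and MIF had 260 CPM per kilobase of exon, and 46.5% of the lncRNA's exon bases lie on MIF exons. RPL30-AS1 rose by 0.38 and the ribosomal protein gene RPL30 by 0.36. TUBA1B-AS1 had −0.15 beside −0.17 for TUBA1B, an alpha-tubulin gene, and neither passed, although TUBA1B-AS1 did with the GC correction and replicate block (−0.14, adjusted p = 0.0344 from edgeR). Without DMSO replicate 3, VIM-AS1 (−0.15) and TUBA1B-AS1 (−0.21) passed (adjusted p = 0.0434 and 0.00418 from edgeR). PCBP1-AS1, beside the RNA-binding protein gene PCBP1, had 0.11 and PCBP1 0.03, and its value went from 0.0487 without DMSO replicate 3 to 0.161 without DMSO replicate 2, neither called. In these 5 the difference within the pair was at most 0.08 in size and did not pass limma's pair test.

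The comparison with the sense gene was tested within libraries. The log2 level of the sense gene was subtracted from that of the lncRNA in each library, and the difference was compared between FT671 and DMSO with limma over 2019 opposite-strand lncRNA and protein-coding pairs, 477 of them member pairs. In 47 member pairs (9.85%) the antisense change lay above the sense change at an adjusted p of 0.05 and in 24 (5.03%) below it, against 10.4% and 6.54% of all pairs. Leaving out FT671 replicate 3 gave 28 and 14, leaving out FT671 replicate 2 gave 31 and 16, and testing without the filter on low counts gave 22 and 11. Across the 477 pairs the 2 log2 fold changes had a Pearson's r of 0.512 and a Spearman's rho of 0.530, had the same sign in 341 (71.5%), and differed by a median of 0.241. The 2 genes of a pair share libraries and, for most pairs, bases. In 72 of the 477 pairs, however, a gene other than the sense gene covered the most antisense exon bases from the opposite strand.

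Both genes of a pair were called in 125 pairs, in the same direction in 107 of them. Of the 102 pairs whose sense gene rose, the antisense rose in 48, fell in 4 and was not called in 50. Of the 157 whose sense gene fell, it fell in 59, rose in 14 and was not called in 84. Of the 218 whose sense gene was not called, 22 lncRNAs rose and 14 fell. No such counts over all 2019 opposite-strand pairs stand beside these, so they describe the member pairs alone.

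The pairs were also split by the share of antisense exon bases on exons of any gene of the other strand, which need not be the sense gene. Where no antisense exon base lay on an opposite-strand exon, r was 0.406 over 36 pairs and 55.6% had the same sign. With over 0 to 20% of bases it was 0.449 over 228 pairs (71.9% of the same sign), with over 20 to 50% it was 0.578 over 137 (71.5%), and with over 50% it was 0.698 over 76, where 77.6% had the same sign. The median size of the difference went the other way, from 0.492 through 0.280 and 0.212 to 0.185. Median summed counts were 145, 247.5, 256 and 369 in these classes, and the part of depth in these differences was not tested. In the 14 divergent pairs tested r was 0.105 and 6 had the same sign, and in the 36 pairs whose bodies alone overlap r was 0.321. In the 83 pairs with an lncRNA largely on its own bases r was 0.401 and 65.1% had the same sign. Among the 13 members covered wholly by opposite exons, 11 shared the sign of their sense gene and only TTBK2-AS1 (−1.37, beside −0.47 for the kinase gene TTBK2) differed from it by the pair test.

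**Figure D3:**
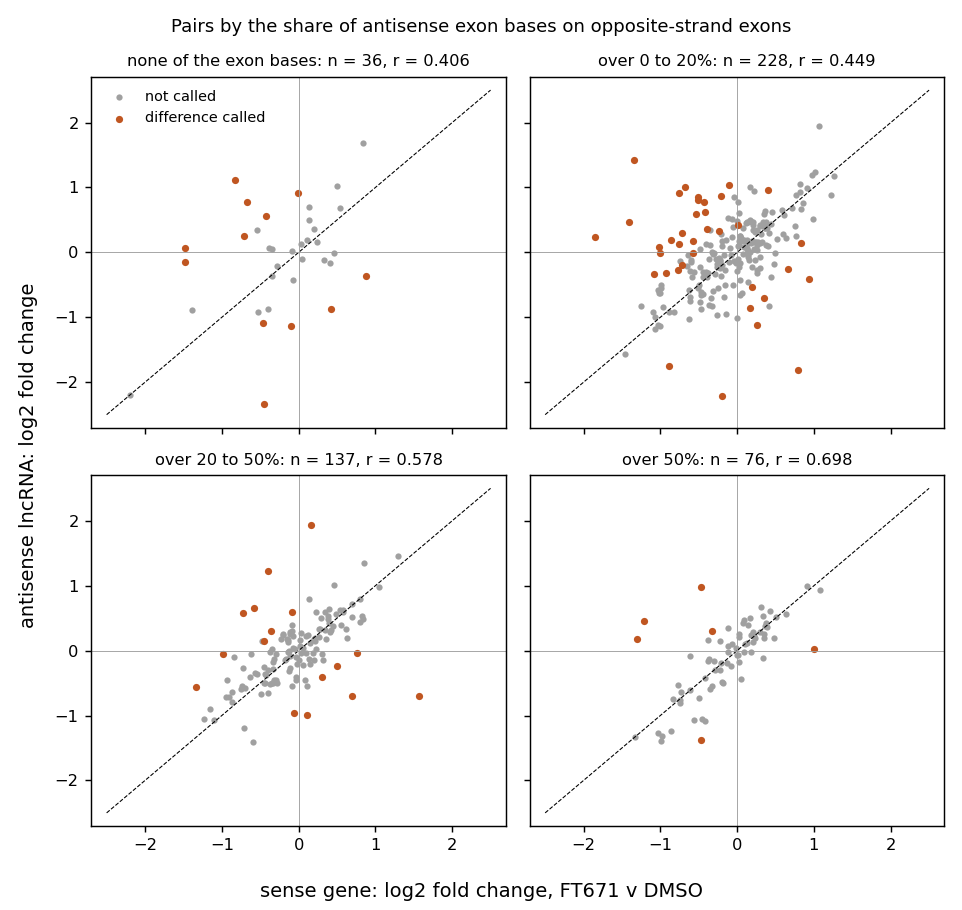
Log2 fold change after FT671 of the sense gene (x axis) and the antisense lncRNA (y axis) in 477 pairs, in 4 panels by the share of antisense exon bases that lie on exons of the other strand. The dashed line marks equal change and coloured points pass limma's pair test. Pearson's r went from 0.406 with no such bases to 0.698 with over 50%.

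In 18 of the 477 member pairs the lncRNA and its sense gene were called in opposite directions. The lncRNA was the higher in 14 and the lower in 4 (CDC42EP3-AS1, NR2F2-AS1, WARS2-AS1 and PTOV1-AS1). More sense genes fell (157) than rose (102) in the 477 pairs, and no count over all 2019 pairs stands beside this split. It is therefore no finding about the members. In 2 of the 18, CDC42EP3-AS1 and ATP2B1-AS1, the lncRNA lay largely on its own bases. Sequences upstream of 3 members of the pair comparison are given here because their RefSeq start lies within 28 bases of the GENCODE start, so that the window covers the region where the lncRNA begins. Each runs from 250 bases before to 50 after the RefSeq start on the strand of the lncRNA (RefSeq, GRCh38.p14). Capitals mark CCAAT and GGGCGG, the letters bound by the factors NF-Y and SP1, or their reverse complements ATTGG and CCGCCC.
DDX59-AS1 (chr1:200669257-200669556, plus strand): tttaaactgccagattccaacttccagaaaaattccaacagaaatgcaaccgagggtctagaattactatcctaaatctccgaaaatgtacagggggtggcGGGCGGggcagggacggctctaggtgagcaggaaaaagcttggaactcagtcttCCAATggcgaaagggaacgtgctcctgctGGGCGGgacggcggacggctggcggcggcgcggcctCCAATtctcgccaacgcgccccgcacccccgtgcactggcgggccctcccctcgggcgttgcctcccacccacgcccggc
ZBTB47-AS1 (chr3:42654339-42654638, minus strand): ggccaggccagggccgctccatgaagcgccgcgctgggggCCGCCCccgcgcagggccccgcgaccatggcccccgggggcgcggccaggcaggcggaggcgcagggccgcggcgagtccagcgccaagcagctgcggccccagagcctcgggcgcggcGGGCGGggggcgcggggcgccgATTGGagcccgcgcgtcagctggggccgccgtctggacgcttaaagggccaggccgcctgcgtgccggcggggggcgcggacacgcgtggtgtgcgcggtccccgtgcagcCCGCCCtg
SAP30L-AS1 (chr5:154445773-154446072, minus strand): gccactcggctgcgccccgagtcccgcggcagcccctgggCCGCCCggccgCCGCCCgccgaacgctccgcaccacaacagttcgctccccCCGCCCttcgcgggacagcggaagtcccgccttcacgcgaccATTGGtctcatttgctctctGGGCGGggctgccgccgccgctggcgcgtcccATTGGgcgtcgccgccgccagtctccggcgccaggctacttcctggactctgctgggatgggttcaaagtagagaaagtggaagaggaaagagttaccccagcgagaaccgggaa

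The 3 windows held 2, 1 and 2 matches to CCAAT and 2, 3 and 4 to GGGCGG. None held CCGGAAGT (ETS factors), CGCATGCG (NRF1), AGATAA (bound by GATA1) or the core promoter letters TATAAA on either strand. No motif searched contains another. Over the 459 RefSeq windows of 391 members, 57.5% held GGGCGG against 45.0% of 35116 windows of all genes, and CCAAT was in 31.4% against 34.6%. The letters TATAAA were in 6.10% against 11.5%, AGATAA in 6.97% against 10.3%, CCGGAAGT in 4.79% against 4.14% and CGCATGCG in 3.49% against 2.02%. Median GC content was 63.7% in the windows of members and 58.7% in all, and a match of letters is a description only.

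SAP30L-AS1 and SAP30L start 147 bases apart and face away from each other, and the SAP30L-AS1 window above holds the annotated start of SAP30L too. SAP30L encodes a subunit of a Sin3 histone deacetylase complex. SAP30L-AS1 (chr5:154325568-154445850) had 7.30, 6.38 and 6.39 CPM in DMSO and 9.22, 7.67 and 10.1 CPM after FT671, while SAP30L had 19.9, 15.9 and 15.8 CPM and then 6.15, 8.03 and 5.51 CPM. The groups did not overlap in either gene. The log2 fold changes were 0.47 (SE 0.17, edgeR adjusted p = 0.0324) and −1.41, and they differed by 1.91 (SE 0.233, adjusted p = 6.38e-05 from limma's pair test). The rise of SAP30L-AS1 was near the threshold and was lost in 5 alternatives (adjusted p 0.0625 to 0.203, with DESeq2, without the filter on low counts or without DMSO replicate 2, FT671 replicate 1 or FT671 replicate 3), and 73.1% of its exon bases lie inside opposite-strand genes such as GALNT10.

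ZBTB47-AS1 was the member furthest above its sense gene. ZBTB47 encodes a zinc finger protein, and the lncRNA (chr3:42601961-42654388, minus strand) begins 691 bases inside it and runs out through its start, across NKTR. ZBTB47-AS1 had 2.60, 1.09 and 4.14 CPM in DMSO and 7.02, 6.07 and 5.86 CPM after FT671. ZBTB47 had 2.81, 2.73 and 2.82 CPM in DMSO and 1.32, 0.892 and 1.05 CPM after FT671, from 6, 5 and 12 counts. The log2 fold changes were 1.42 and −1.34 and their difference 2.86 (SE 0.435, adjusted p = 0.000378 from limma's pair test). All exon bases of ZBTB47-AS1 (100%) lie inside opposite-strand genes, 9.34% of them on exons, so its counts may hold reads of those genes.

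In other pairs 1 gene was called and the other was not. SBNO1, a gene of the strawberry notch family, fell from 110 ± 18.1 to 29.6 ± 2.09 CPM (SD, n = 3 each), whereas SBNO1-AS1 had 2.60, 3.01 and 4.14 CPM in DMSO and 5.27, 2.85 and 3.06 after FT671, with overlapping groups and no call. The difference was 2.03 (adjusted p = 5.79e-05 from limma's pair test). PIWIL4, of the piRNA-binding family, rose from 3.73 ± 0.349 to 11 ± 0.777 CPM (SD, n = 3 each) and PIWIL4-AS1 was not called (−0.69, adjusted p = 0.0865 from edgeR), with FUT4 exons on part of its bases. POC1B-AS1, largely on its own bases, fell by 1.11 on the log2 scale while POC1B, a centriole protein gene, was not called. PIWIL4-AS1 passed without DMSO replicate 3 (adjusted p = 0.00301 from edgeR), without the filter on low counts (0.0455) and with the gene length correction (0.0313), and POC1B-AS1 did not pass without FT671 replicate 3 (0.0704).

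JARID2, an accessory subunit of PRC2, fell from 123 ± 7.39 to 67.6 ± 1.89 CPM and JARID2-AS1, in an intron, rose from 1.43 ± 0.400 to 2.73 ± 0.465 CPM (SD, n = 3 each). The rise of JARID2-AS1 was not called without DMSO replicate 1 or without FT671 replicate 3 (adjusted p = 0.0535 and 0.0755 from edgeR). ZEB2-AS1, described elsewhere as favouring retention of an intron in ZEB2 mRNA, had 10.2, 10.3 and 7.89 CPM in DMSO and 24.4, 18.6 and 23.2 CPM after FT671. ZEB2, a repressor of E-cadherin, fell from 166 ± 14.4 to 123 ± 7.57 CPM (SD, n = 3 each), and the changes differed by 1.57 (adjusted p = 3.05e-05 from limma's pair test). Of the ZEB2-AS1 exon bases 86.6% lie inside opposite-strand genes and 41.4% on their exons. KMT2E-AS1 and ASH1L-AS1 rose by 0.85 and 0.77 while KMT2E and ASH1L, of the histone methyltransferase families, changed by −0.51 and −0.43. Inside opposite-strand genes lie 100% of the KMT2E-AS1 exon bases and 36.2% of those of ASH1L-AS1. The call of ASH1L-AS1 was lost without DMSO replicate 2 and without FT671 replicate 2 (adjusted p = 0.0626 and 0.0995 from edgeR) and in 3 other alternatives. PITX1-AS1 had 21.6, 21.2 and 23.1 CPM and then 32.1, 28.9 and 27.5 CPM, while PITX1, a homeobox gene, fell from 111 ± 13.7 to 47.3 ± 2.45 CPM (SD, n = 3 each). MACROH2A1, a histone variant gene, lies opposite to most of the PITX1-AS1 exon bases (4706 of 6650). NR2F2-AS1 went the other way, from 9.06 ± 1.25 to 5.06 ± 0.913 CPM, as NR2F2, an orphan nuclear receptor gene, rose from 114 ± 1.45 to 149 ± 1.31 CPM (SD, n = 3 each).

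**Figure D4:**
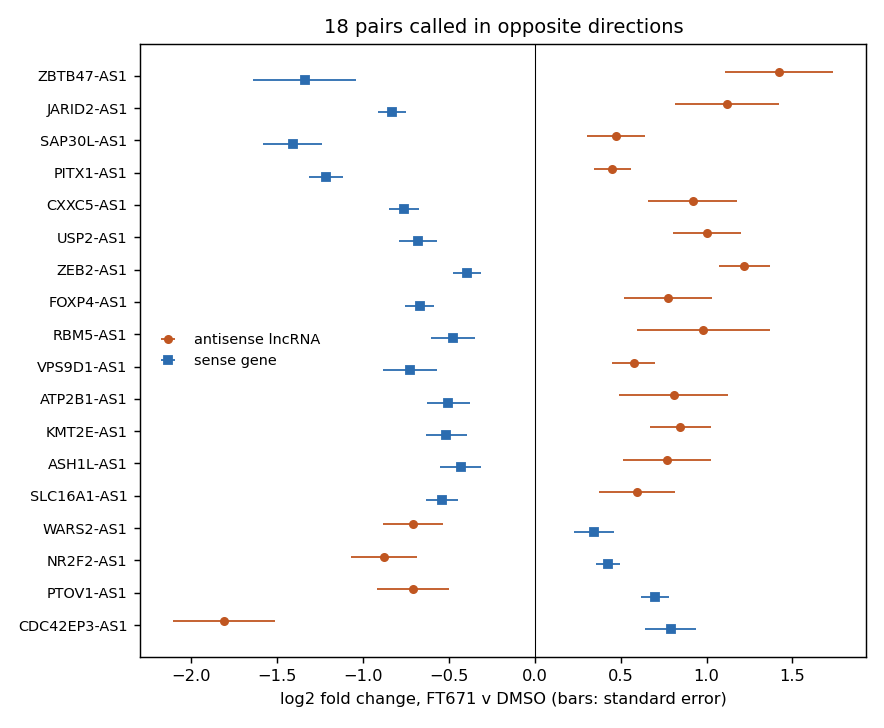
Log2 fold change after FT671 (x axis; bars are standard errors from edgeR) of the antisense lncRNA (circles) and the sense gene (squares) in the 18 pairs called in opposite directions, ordered by the pair difference. In 14 pairs the lncRNA is on the positive side and the sense gene on the negative side.

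The members were also grouped by the first letters of the sense gene's symbol. Of 21 members at zinc finger genes 2 fell (ZNF710-AS1 and ZNF225-AS1) and 4 rose (ZBTB11-AS1, ZNF385D-AS1, ZNF232-AS1 and ZBTB47-AS1), whereas of 19 tested zinc finger sense genes 7 fell and 1 rose. Of 16 at ubiquitin system genes found by these letters, 0 fell and 2 rose (TRIM52-AS1 and USP2-AS1) by edgeR. At an unadjusted p of 0.05, and by DESeq2, 0 of the 16 fell as well. Of their 15 tested sense genes 8 fell and 1 rose. The symbol also placed USP6NL-AS1 there, which was not called and whose sense gene encodes a GTPase-activating protein for Rab proteins. The letters left out HECW2-AS1, at a ubiquitin ligase gene, which fell (log2 fold change −2.20, edgeR adjusted p = 0.000246). USP2-AS1 had 3.72, 3.46 and 3.20 CPM in DMSO and 7.90, 6.96 and 6.29 CPM after FT671, while USP2, another deubiquitinase gene, changed by −0.68. TRIM52-AS1, divergent and on no base of another gene, rose by 0.51, and TRIM52 was not called (0.13). Of 13 members at symbols of developmental transcription factors 2 fell (FOXD2-AS1 and GATA2-AS1) and 2 rose (ZEB2-AS1 and FOXP4-AS1). Their 9 tested sense genes had 2 lower and 2 higher. These 13 hold 4 members of HOX clusters and, by their letters alone, PAXIP1-AS2 and PAXBP1-AS1, which were not called and whose sense genes encode proteins that bind PAX factors. At chromatin genes 1 of 4 tested fell (SMARCA5-AS1) and 2 rose, and of 5 tested sense genes in that group 3 fell and 0 rose. Other members named above were also left out by the letters. Such were JARID2-AS1, SAP30L-AS1 and PITX1-AS1, which rose, and NR2F2-AS1, which fell. These counts were not compared by a test, and the shares stand against 26.5% lower and 23.6% higher of all genes.

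Of 37 genes on a list of well-studied antisense lncRNAs, 27 were tested, 4 fell and 4 rose (29.6% called, against 50.1% of all genes). These 27 have 26 names, since 2 genes are both called DNAJC9-AS1. FOXD2-AS1 (chr1:47432133-47434641, minus strand), which overlaps no gene, had 29.0, 27.7 and 28.0 CPM in DMSO and 11.2, 11.6 and 14.2 CPM after FT671. The libraries within each group lay close together and the groups were far apart (log2 fold change −1.13, SE 0.124, edgeR adjusted p = 6.35e-06). Its neighbour FOXD2, a forkhead factor gene, was not called, at 16.5 ± 1.16 and 15.3 ± 1.24 CPM (SD, n = 3 each), and the pair difference was −1.0 (adjusted p = 0.000872 from limma's pair test).

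GATA2-AS1 fell from 41.5, 39.0 and 32.3 CPM to 26.6, 18.7 and 18.1 CPM, while GATA2, a hematopoietic transcription factor gene, had 296 ± 22.7 and 326 ± 4.99 CPM (SD, n = 3 each; adjusted p = 0.0741 from edgeR). The pair difference was −1.05 (SE 0.138, adjusted p = 0.000131 from limma's pair test), and 30.1% of the GATA2-AS1 exon bases lie within GATA2. OIP5-AS1, known as Cyrano, fell from 116 ± 23.0 to 69.6 ± 5.30 CPM (SD, n = 3 each; log2 fold change −0.69, adjusted p = 0.000265 from edgeR), and it shares exon bases on its own strand with NUSAP1. MCM3AP-AS1 fell by 0.50 and MCM3AP by 0.49 on the log2 scale.

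THAP9-AS1, largely on its own bases with respect to the other strand but overlapping SEC31A on its own, rose from 9.31 ± 1.35 to 16.3 ± 1.23 CPM (SD, n = 3 each). THAP9, a gene derived from a DNA transposase, was not called (−0.21), and the changes differed by 1.06 (adjusted p = 0.00176 from limma's pair test). ZBTB11-AS1 rose by 0.47 and ZBTB11 by 0.38. The 19 tested but not called included TMPO-AS1 (0.11) and PSMA3-AS1 (0.17).

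Genes of the machinery known to limit antisense transcripts were called about as often as all genes. Of 24 genes of the nuclear exosome and its cofactors, 7 fell and 6 rose by edgeR (54.2% called, against 50.1%). SRRT, which links capped RNA to decay, fell by 0.59 on the log2 scale and EXOSC6, a core subunit, by 0.83, whereas NCBP2, a cap-binding protein gene, rose by 0.80 and EXOSC2 by 0.67. Of 18 Integrator genes 6 fell and 3 rose (50% called). INTS5 fell by 1.81 and INTS1 by 1.36, whereas INTS12 rose by 0.51. The part of these genes in the members' changes was not tested.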

How the data were processed

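RNA-seq libraries of K562 cells (3 DMSO, 3 FT671 at 10 μM, 48 h) were used. The 6 ChIP-seq samples of the series were not used here. The authors deposited raw counts per gene, for which STAR aligned paired-end reads of rRNA-depleted RNA (two-pass mode, hg38) and counted them. Versions, annotation release and strand setting are not given in the sources used here. The submitters' processing notes name STAR and DESeq2. Of 60609 identifiers, 60295 matched GENCODE release 44 (versions dropped).

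Counts were filtered with edgeR's filterByExpr (13895 genes), scaled by TMM and tested by edgeR's quasi-likelihood test (edgeR 4.0.16, R 4.3.3) without covariates, with Benjamini-Hochberg adjustment over all genes. The standard error is the log2 fold change divided by the square root of F. CPM use TMM-scaled library sizes. Antisense minus sense voom values were tested with limma 3.58.1 with combined voom weights, adjusted over 2019 pairs that overlap or start within 5000 bases of each other, or are member pairs. Overlaps were computed on merged GENCODE exons. Scripts were tested on simulated data. The pairing of libraries rests on the replicate numbers in the labels alone: independent experiments are mentioned by the study, but not whether equal numbers share one. Deviations of same-numbered libraries correlated across genes at r = 0.115, −0.0605 and 0.140, which cannot settle whether they were paired. The main fit has no block because the study's count model names no covariates, and a block was run as an alternative.

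Members and lists were chosen with earlier results of these data known. Named members are the 8 largest falls and rises among calls with separate groups and at least 1 CPM in the higher group, the 6 most abundant, the 5 pairs furthest above and below the sense change, called members of a list of well-studied antisense lncRNAs, and those nearest the count limit. The opposite-direction pairs, TTBK2-AS1, SPTBN1-AS2, USP2-AS1, TRIM52-AS1, TMPO-AS1, PSMA3-AS1 and the members named at zinc finger and chromatin genes were picked after their values were seen. Some members that the rule names are not reported here. Alternatives were DESeq2's size factors and Wald test (1.42.0), library totals, other filters on low counts, GC and gene length curves (loess span 0.3), a replicate block, each library left out, and another pair statistic.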

Additional observations from a re-analysis of the deposited data

How the results depend on the processing

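The numbers of members called lower (90) and higher (90) at an adjusted p of 0.05 stayed within 1.5 times under the alternatives run, and the scaling of libraries alone changed only the number called higher at 1e-05 beyond that, from 1 to 2 with DESeq2's size factors. The counts at 1e-05 (2 lower, 1 higher with edgeR) were 22 and 16 without the filter on low counts, 9 and 12 with DESeq2's Wald test, 7 and 9 with the GC correction, 4 and 5 with the gene length correction, 6 and 11 with the GC correction and the replicate block, and 8 and 7 with the gene length correction and the replicate block. The replicate block alone gave 4 higher. It moved the share of members called from 34.0% to 33.0% and the pairs above and below the sense change from 47 and 24 to 41 and 20, and the same-numbered libraries did not deviate together in all 3 pairs. Leaving out each library gave 0 to 13 lower and 0 to 15 higher at 1e-05, a share called of 26.4% to 38.5% (39.8% to 53.2% of all genes), a median log2 fold change of −0.0242 to 0.0458, 14 to 24 pairs below and 28 to 43 pairs above the sense change. The lowest pair counts came without FT671 replicate 3, and the highest counts at 1e-05 without DMSO replicate 3, the library of 5320245 counts. No share of all genes at 1e-05 was taken under the alternatives, so the counts at 1e-05 describe the members alone. With at least 10 counts in every library the median was 0.0737 and 13 pairs lay below the sense change. Without the filter 11 lay below and 22 above, with more genes tested. The share called was 25.1% with DESeq2 (44.1% of all genes) and 40.9% among members with at least 200 counts. The same sign was shared by 55.6% of the pairs whose exons do not overlap and, in an alternative chosen after seeing the data, by 65.1% of the pairs with an lncRNA largely on its own bases, against 71.5% of all. Among 36 named members, 12 changed a call or sign in at least 1 alternative, among them RPL30-AS1 (not called with the gene length correction) and ACVR2B-AS1 (called with library totals or the gene length correction). DMTF1-AS1 is among the 36 but was not tested in the main fit, so it could not change, and some others were not tested in every alternative. Signs turned for VIM-AS1, to 0.078 without DMSO replicate 2, and SBNO1-AS1, to −0.0035 without FT671 replicate 1, neither called, and leaving out each library gave −0.15 to 0.078 and −0.0035 to 0.40 for them. Except where fewer genes or libraries entered, the cause was not tested. The share called was 23.6% in members under 200 counts and 51.2% in those with at least 1000, and the part of depth was not tested.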
